A study of Mus musculus with 165 samples.

Results

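Brains of male mice aged 15 months were compared with brains of male mice aged 3 months by sequencing of polyadenylated RNA. The comparison used 31 of the 82 brain libraries of the series: every brain library of 15 months (n = 16) and of 3 months (n = 15), chosen by the age in their labels. All mice were of the inbred strain C57BL/6J/Ukj, carried no transgene or treatment named in the labels, and gave 1 brain library each. The other libraries came from brains of 9, 24 and 28 months, which shared the estimate of the spread, and from livers of all 5 ages. Libraries had been made in 3 batches, called prep 1, prep 2 and prep 3 in the labels. They held 5, 5 and 5 brains of 3 months and 5, 7 and 4 brains of 15 months, and prep was a term of the fit.

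A mouse of 3 months is a young adult and a mouse of 15 months is middle-aged. In the young adult brain, stem cells of the subventricular zone and the dentate gyrus still divide and give newborn neurons, and oligodendrocyte precursors divide and mature into myelinating cells through a committed stage. Microglia, the resident macrophages of the brain, and the complement cascade, which tags material for removal, are known for slow changes with age. In bulk tissue, fewer cells of a type and less RNA per cell cannot be told apart, and this holds for every level below.

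Each 3-month library held 30.4 to 69.9 M counts (median 39.6 M) and each 15-month library 28.4 to 46.1 M counts (median 36.1 M). Levels are given in CPM, counts scaled to the TMM-adjusted size of the library, which are not corrected for gene length and are compared here only within a gene. The neuronal marker Snap25 stood at 1892 CPM or more in all 31 libraries, the liver marker Alb at 0.122 CPM or less, and 1 gene of the Y chromosome, Ddx3y, at 31.7 CPM or more. Some libraries stood apart. The summed level of 14 choroid plexus genes, the tissue that makes cerebrospinal fluid, passed 1000 CPM in 3 libraries of 3 months (replicates 4, 5 and 15, the highest at 6904 CPM) and in 1 library of 15 months (replicate 14, 5053 CPM), against medians of 203 and 122 CPM. Pituitary growth hormone, Gh, reached 495 CPM in replicate 5 of 3 months and at most 2.94 CPM at 15 months. Replicate 9 of 3 months had the highest value of its age for 27 of the 65 genes called lower below, and replicate 9 of 15 months had the highest value for 24 of the 98 genes called higher. The labels do not say how the brains were dissected.

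Of 18711 genes tested, 163 were called at an adjusted p under 0.05 (0.871%; quasi-likelihood test of edgeR, adjusted over all tested genes by Benjamini and Hochberg's method): 98 were higher (0.524%) and 65 were lower (0.347%) at 15 months. The genes called lower included 9 of 37 tested proliferation genes, 5 of 31 newborn neuron genes, Gpr17 of committed oligodendrocyte precursors and 3 collagen or collagen-processing genes. The genes called higher included complement C4b, a few microglial genes and 4 clustered protocadherins. Most changes were small: the median size of the log2 fold change over the called genes was 0.58, 132 of the 163 changed by less than 2-fold and 82 by less than 1.5-fold. The mean level over the 31 libraries was under 1 CPM for 54 of the called genes. In 10 genes the 15-month and the 3-month libraries did not overlap (0.0534% of those tested), and all 10 were called: A530053G22Rik, Upk1b, Spag6, Exoc3l4, Txlnb, Pcdhb9 and Slc2a5 were higher, and 9630013A20Rik, Draxin and Gpr17 were lower.

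The count of called genes depended on which other libraries entered the fit. With only the 31 libraries of 3 and 15 months, 361 genes were called (1.93%; 228 higher, 1.22%, and 133 lower, 0.711%), 155 of the 163 among them. Without the 24-month replicate 13 and the 28-month replicate 15, which enter the shared spread but not the contrast, 359 were called (1.92%; 243 higher, 1.30%, and 116 lower, 0.620%), with all 163 among them. Without the 4 libraries richest in choroid plexus genes, 117 were called (78 higher and 39 lower), 109 of them shared with the 163.

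Genes of cell division were among those called lower. Of 40 listed proliferation genes, 37 passed the filter on low counts, and 9 of these were called lower and 0 higher. The median log2 fold change over the 37 was -0.26, against -0.00309 over all tested genes, and 32 of the 37 values were negative. The 9 genes were Top2a, Ccnb1, Pbk, Mki67, Mcm6, Prc1, Cenpf, Rrm2 and Cdk1.

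Top2a, the topoisomerase that untangles DNA in dividing cells, ranged from 0.639 to 3.18 CPM at 3 months (median 1.28) and from 0.170 to 0.842 CPM at 15 months (median 0.475). All 16 libraries of 15 months lay below the 3-month median, and 14 of them below the lowest 3-month library. The log2 fold change was -1.57 ± 0.22 (SE), or 2.96-fold lower, with an adjusted p of 6.06e-07. Mki67, which encodes the Ki-67 antigen of cycling cells, ran from 0.828 to 3.04 CPM at 3 months (median 1.22) and from 0.350 to 0.929 CPM at 15 months (median 0.579). Again 14 of 16 older libraries lay below every young one, and the log2 fold change was -1.20 ± 0.21 (adjusted p = 0.000111).

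The mitotic cyclin Ccnb1 had a median of 0.368 CPM at 3 months (0.170 to 0.983) and of 0.159 CPM at 15 months (0 to 0.277). Its partner kinase Cdk1 had medians of 0.267 CPM (0.170 to 0.678) and 0.156 CPM (0.0273 to 0.362). Ccnb1 was 2.84-fold lower (adjusted p = 4.94e-05), and Cdk1 fell by 1.07 ± 0.25 on the log2 scale (adjusted p = 0.0115), a call lost without the 4 libraries richest in choroid plexus genes. These are low levels, with few counts per library. The mitotic kinase Pbk changed by -1.53 ± 0.26 (adjusted p = 7.09e-05), the spindle midzone protein Prc1 by -0.69 ± 0.15 (0.00365) and the centromere protein Cenpf by -0.68 ± 0.15 (0.00449).

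Mcm6, a subunit of the replicative helicase, went from a median of 13.0 CPM (9.38 to 18.1) to 9.97 CPM (8.48 to 13.5), a log2 fold change of -0.36 ± 0.07 (adjusted p = 0.000795). Rrm2, a subunit of ribonucleotide reductase, changed by -0.40 ± 0.09 (adjusted p = 0.00900). The groups overlapped for both genes. Of 70 listed replication-dependent histone genes, 18 were tested and 3 were called lower, Hist1h2bg (-0.73 ± 0.18), Hist1h3d (-0.90 ± 0.22) and Hist1h1c (-0.50 ± 0.13), with a list median of -0.24. Histone values are uncertain, since most of these messages lack a poly(A) tail and near-identical copies share reads, and without the 4 libraries richest in choroid plexus genes Hist1h2bg and Hist1h1c lost their calls. Leaving out replicate 16 of 3 months left 0 histone genes called, and leaving out any other single library of the 31 left 2 or 3.

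Called genes outside the list, named after their values were seen, included further parts of the division machinery: the spindle protein Aspm, 2.00-fold lower, and, as log2 fold changes, the mitotic kinesin Kif15 (-0.86 ± 0.19), Ckap2l (-0.83 ± 0.16), Ckap2 (-0.74 ± 0.17), Uhrf1, which maintains DNA methylation behind the replication fork (-0.70 ± 0.13), the repair gene Brca1 (-0.44 ± 0.11) and the kinetochore gene Nuf2 (-0.43 ± 0.10). Brca1 and Nuf2 lost their calls without the 4 libraries richest in choroid plexus genes. In each of the 7 genes at least 14 of 16 libraries of 15 months lay below the 3-month median. Replicate 9 of 3 months was the highest young library for 7 of the 9 called proliferation genes. Without it the list still held 9 called members, and Top2a changed by -1.44 (adjusted p = 5.04e-06) and Mki67 by -1.06 (0.000724). Over the 31 fits that each left out 1 library, 9 to 11 members were called.

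**Figure D1:**
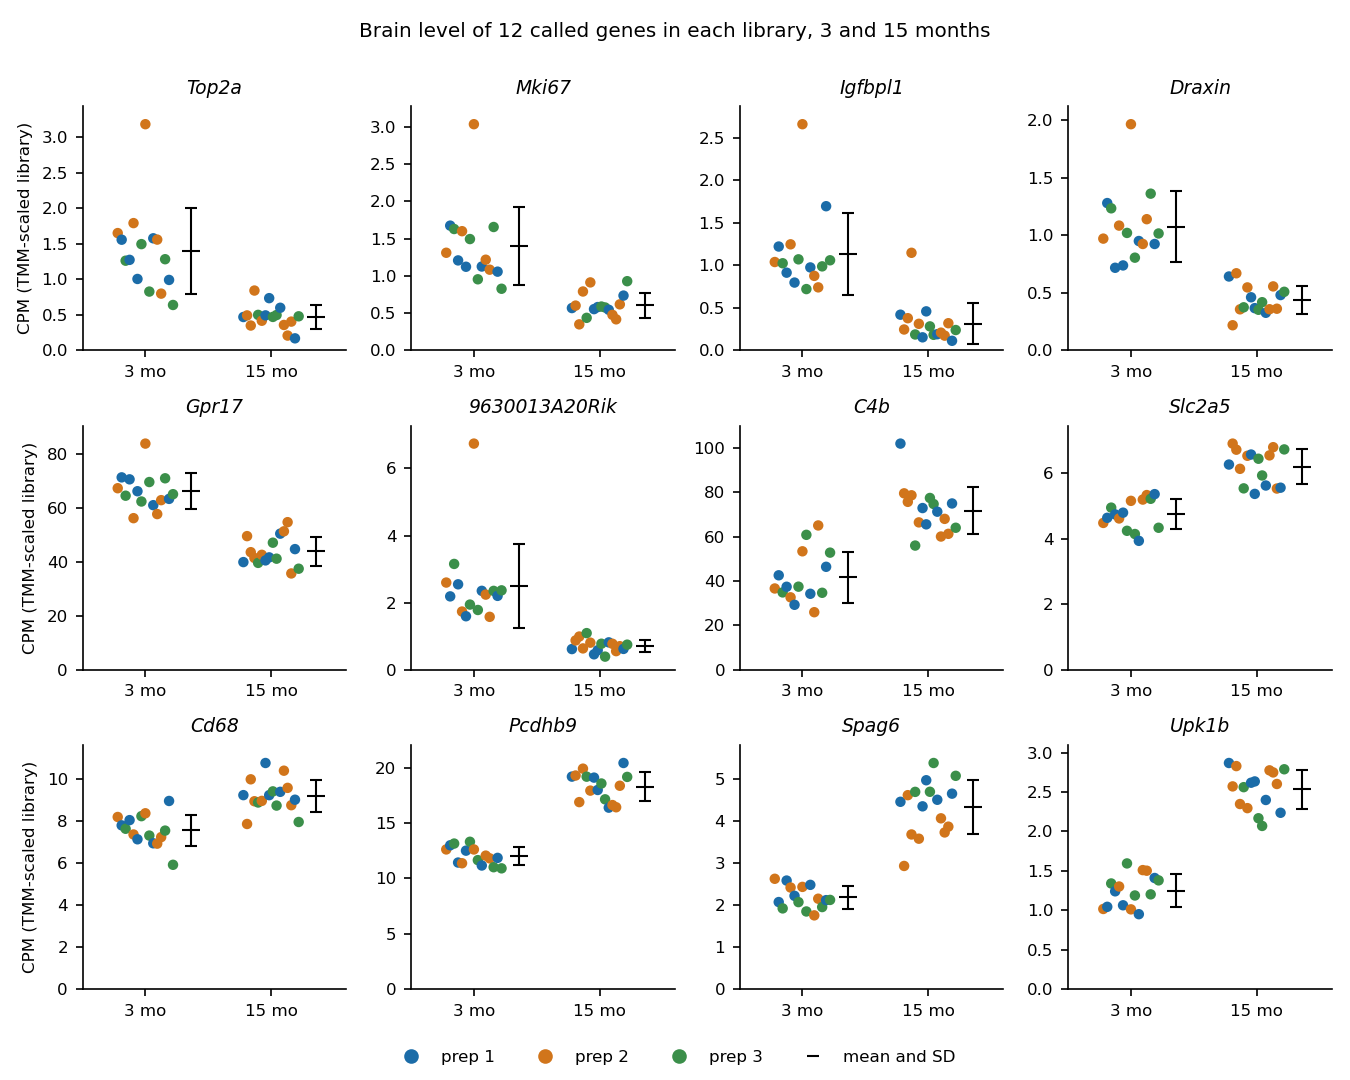
Level of 12 called genes in each brain library at 3 months (15 points) and 15 months (16 points), in CPM of the TMM-scaled library on a linear axis from 0, coloured by library prep, with the mean and SD as bars. Top2a, Mki67, Igfbpl1 and Draxin are lower at 15 months, with the young replicate 9 on top in each, and Pcdhb9, Spag6 and Upk1b show no overlap between the ages.

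Because these genes moved together, their promoters are shown. The RefSeq table of promoters (GRCm38.p6) held 8 of the 9 called proliferation genes. Below are the 100 bases before the annotated start of 4 of them, written 5′ to 3′ on the gene's strand, with capitals marking TTTGAA and CCAAT on either strand (as TTCAAA and ATTGG when reversed). TTTGAA is the core of the cell cycle gene homology region, bound in quiescent cells by the DREAM complex, and CCAAT is the box bound by NF-Y.
Top2a, chr11:99024190-99024289, minus strand: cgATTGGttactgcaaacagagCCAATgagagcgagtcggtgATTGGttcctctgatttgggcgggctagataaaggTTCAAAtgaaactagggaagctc
Mki67, chr7:135716380-135716479, minus strand: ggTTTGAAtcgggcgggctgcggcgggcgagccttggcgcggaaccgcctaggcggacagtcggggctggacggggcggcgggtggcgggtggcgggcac
Cenpf, chr1:189688087-189688186, minus strand: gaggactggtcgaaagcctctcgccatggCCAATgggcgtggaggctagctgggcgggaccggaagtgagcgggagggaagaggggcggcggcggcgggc
Mcm6, chr1:128359706-128359805, minus strand: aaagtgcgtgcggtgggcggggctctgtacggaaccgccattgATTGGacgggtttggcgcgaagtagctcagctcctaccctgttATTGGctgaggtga

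Over the 250 bases before the start, all 8 promoters of the called proliferation genes held CCAAT on either strand and 3 of 8 held TTTGAA. Among the 22 proliferation genes that were tested and not called and had a promoter in the table, 17 held CCAAT and 5 held TTTGAA. Of 12933 promoters of tested genes, 35.7% held CCAAT and 10.8% TTTGAA. These are matches of letters, not measured sites, and each motif was counted by itself.

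Genes of newborn neurons and neural precursors were next. Of 31 listed and tested, 5 were called lower and 0 higher: Igfbpl1, Draxin, Eomes, Sox11 and Dpysl3. The list's median log2 fold change was -0.02, with 14 positive and 17 negative values, and leaving out single libraries gave 3 to 5 called members. Igfbpl1, an insulin-like growth factor binding protein relative made in immature neurons, had a median of 1.03 CPM at 3 months (0.721 to 2.66) and of 0.243 CPM at 15 months (0.113 to 1.15). Only replicate 4 of 15 months reached into the young range. The log2 fold change was -1.82 ± 0.30, or 3.53-fold lower (adjusted p = 2.72e-05). Draxin, a secreted axon guidance protein, ran from 0.718 to 1.97 CPM at 3 months (median 1.02) and from 0.219 to 0.671 CPM at 15 months (median 0.397), with no overlap (-1.29 ± 0.17, adjusted p = 9.68e-08).

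Sox11, a transcription factor of immature neurons, went from a median of 20.9 CPM (17.9 to 29.6) to 17.4 CPM (12.2 to 21.3), a log2 fold change of -0.37 ± 0.09 (adjusted p = 0.0224). Dpysl3, a cytoskeletal protein of growing axons, changed by -0.25 ± 0.05 (adjusted p = 0.000754). Eomes, the transcription factor of intermediate progenitors and also of olfactory bulb neurons, changed by -1.44 ± 0.39 (adjusted p = 0.0468), with 1 library of 15 months above every young library, and was called in 8 of the 31 fits that left out 1 library. Without the 4 libraries richest in choroid plexus genes, Sox11 and Eomes lost their calls and 3 members remained called. Without replicate 9 of 3 months, Igfbpl1 changed by -1.65 (adjusted p = 0.000242) and Draxin by -1.20 (adjusted p = 7.09e-07). Marker lists of brain regions had negative medians too: -0.27 over 8 hippocampus genes with 0 called, and -0.12 over 7 olfactory bulb genes with Eomes alone called (-0.02 without replicate 10 of 3 months). The medians were -0.07 over 8 striatum genes, -0.17 over 9 cerebellum genes, -0.17 over 2 brainstem and spinal cord genes and -1.29 over 5 hypothalamus genes, with 0 called in each. Leaving out single libraries moved the median to between -0.11 and -0.02 for striatum, -0.31 and 0.07 for brainstem and spinal cord, and -1.57 and -0.44 for hypothalamus, and striatum and hypothalamus then had up to 1 called member. The summed level of the hippocampus list ran from 761 to 1041 CPM at 3 months (median 888) and from 667 to 969 CPM at 15 months (median 828), and that of the olfactory bulb list from 192 to 276 CPM (median 239.6) and from 190 to 252 CPM (median 215). The part of the dissected regions in these differences was not tested.

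In the oligodendrocyte lineage few genes were called. Gpr17, a receptor of committed precursors, ran from 56.3 to 84.0 CPM at 3 months (median 65.2) and from 35.8 to 54.9 CPM at 15 months (median 42.2). The groups did not overlap, and the log2 fold change was -0.60 ± 0.10, or 1.52-fold lower (adjusted p = 7.17e-05). In the annotation its exons overlap Lims2 on the opposite strand, and the strand setting of the counting is not given in the sources used here. The long noncoding RNA 9630013A20Rik, known from newly formed oligodendrocytes, had a median of 2.24 CPM at 3 months (1.58 to 6.74) and of 0.727 CPM at 15 months (0.393 to 1.09). It fell by 1.80 ± 0.18 on the log2 scale (adjusted p = 1.05e-11), again without overlap.

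Of 26 listed precursor genes, Gpr17 and Bmp4 were called lower and 0 higher, with a list median of -0.06. Bmp4, a growth factor of the committed stage, changed by -0.64 ± 0.17 (adjusted p = 0.0389) and lost its call in 5 of 13 alternatives, among them the fit without the 4 libraries richest in choroid plexus genes. Leaving out single libraries left Gpr17 alone called in 16 of 31 fits. None of 25 myelin and mature oligodendrocyte genes was called, with a list median of -0.08. Without replicate 9 of 3 months that median was 0.06 and 1 member was called higher. Mbp, myelin basic protein, was at 2072 ± 885 CPM at 3 months and 2027 ± 470 CPM at 15 months (SD, n = 15 and 16), with a log2 fold change of -0.04 ± 0.13.

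Among 43 collagen and collagen-processing genes, 3 were called lower and 0 higher. Col3a1, a fibrillar collagen, had a median of 2.95 CPM at 3 months (1.76 to 7.27) and of 1.58 CPM at 15 months (1.05 to 5.86), a log2 fold change of -0.98 ± 0.23 (adjusted p = 0.0107). Col1a2, a chain of collagen I, changed by -0.66 ± 0.17 (0.0290) and Gpx8, a peroxidase of the endoplasmic reticulum, by -0.91 ± 0.22 (0.0210), a call lost without the prep term. In all 3 genes 15 of 16 libraries of 15 months lay below the 3-month median and the ranges overlapped.

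The list's median was -0.19. It was -0.11 without the 4 libraries richest in choroid plexus genes and -0.04 with the choroid plexus score as a term, and Col1a2 lost its call in both. Leaving out single libraries gave 1 to 4 called members, with 1 left without replicate 5 of 3 months and 4 without replicate 14 of 15 months. Col3a1 and Col1a2 also stand in the list of meninges and fibroblast genes, whose 15 members had a median of -0.27 and whose summed level ran from 234 to 944 CPM at 3 months (median 511) and from 222 to 1028 CPM at 15 months (median 358). The part of dissected meninges and choroid plexus in these differences was not tested beyond these fits. Col2a1, the collagen of cartilage, was in neither list and was named after its values were seen: it rose by 0.61 ± 0.15 (adjusted p = 0.0148), from a median of 1.89 CPM (1.24 to 4.63) to 3.50 CPM (1.91 to 4.43), and it lost its call without the 4 libraries richest in choroid plexus genes. In a list of 40 other matrix genes 1 was higher and 1 lower. Tnc, tenascin C, had a median of 8.77 CPM at 3 months (5.21 to 11.3) and of 5.98 CPM at 15 months (4.11 to 7.58), with all older libraries below the young median (-0.56 ± 0.12, adjusted p = 0.00241). Frem3, of the Fras1 family of basement membrane proteins, went from 1.56 CPM (0.683 to 2.37) to 3.03 CPM (1.81 to 5.11) and rose by 0.92 ± 0.18 (adjusted p = 0.00133). The apelin receptor Aplnr, outside both lists, fell by 1.69 ± 0.20 on the log2 scale (adjusted p = 3.03e-09) from a median of 1.06 to 0.296 CPM.

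A few complement and microglial genes were called higher, by small amounts. Of 20 tested complement genes, 3 were called higher and 0 lower, with a list median of 0.21. C4b, the component cleaved at the start of the classical pathway, ran from 26.0 to 65.1 CPM at 3 months (median 37.5) and from 56.0 to 102 CPM at 15 months (median 72.1). All 16 older libraries lay above the young median and 12 above the highest young library. The log2 fold change was 0.79 ± 0.10, or 1.72-fold higher (adjusted p = 3.98e-08). C3ar1, the receptor for the C3a fragment (0.35 ± 0.09, adjusted p = 0.0429), and Itgb2, the beta chain of complement receptor 3 (0.30 ± 0.08, adjusted p = 0.0447), were close to the threshold, and both lost their calls without the 4 libraries richest in choroid plexus genes. Leaving out single libraries gave 1 to 3 complement genes higher and 0 to 1 lower. C4b and its near-identical copy C4a may share reads.

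Of 20 homeostatic microglial genes, 2 were called higher and 0 lower, with 17 positive values and a median of 0.18. Slc2a5, a fructose transporter that microglia make, ran from 3.93 to 5.35 CPM at 3 months (median 4.73) and from 5.36 to 6.89 CPM at 15 months (median 6.34). The groups met without overlapping, and the log2 fold change was 0.37 ± 0.08 (adjusted p = 0.00621). Cx3cr1, the fractalkine receptor, went from a median of 55.4 CPM (50.7 to 61.9) to 64.6 CPM (55.2 to 76.9), a log2 fold change of 0.24 ± 0.06 (adjusted p = 0.00954). In the fit of only the 31 libraries 8 members were higher and 1 lower.

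Of 31 tested disease-associated microglial genes, Cd68 and Lag3 were called higher and 0 lower, with a median of 0.11. Cd68, a lysosomal glycoprotein of phagocytes, had a median of 7.53 CPM at 3 months (5.91 to 8.94) and of 9.11 CPM at 15 months (7.85 to 10.7), with every older library above the young median (0.28 ± 0.06, adjusted p = 0.00360). Lag3, an inhibitory receptor, changed by 0.44 ± 0.12 (adjusted p = 0.0395). Leaving out single libraries gave 1 called member of the list in 18 of 31 fits, and Lag3 lost its call without the 4 libraries richest in choroid plexus genes. Cd68 was also the 1 called member of 28 cathepsin and lysosome genes.

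Further called genes are known from immune cells and were named after their values were seen. Ly9, a receptor of the SLAM family, changed most of these, 2.11-fold, from a median of 0.264 to 0.565 CPM (adjusted p = 1.59e-06). On the log2 scale, the leukocyte actin-binding protein Lsp1 changed by 0.54 ± 0.11, Tnfsf13b, the B cell survival factor BAFF, by 0.44 ± 0.09, the inflammasome receptor Naip2 by 0.41 ± 0.09, the proton channel Hvcn1 by 0.37 ± 0.08 and the phagosomal metal transporter Slc11a1 by 0.35 ± 0.08. Havcr2, also called Tim-3, Apbb1ip, Csf3r, Fes and Plek changed by 0.23 to 0.31. Naip2 and Plek lost their calls without the 4 libraries richest in choroid plexus genes, and Fes with the choroid plexus score as a term. Over the 31 fits that each left out 1 library, Fes was called in 13, Plek in 23 and Havcr2 in 27. The summed level of 10 neutrophil genes, 7 of them tested and 0 called, ran from 0.315 to 5.66 CPM at 3 months (median 1.36) and from 1.23 to 8.14 CPM at 15 months (median 2.54), and all 7 log2 fold changes were positive with a median of 0.69. The summed level of red blood cell genes, 6 tested and 0 called, ran from 30.1 to 235 CPM (median 75.5) and from 54.1 to 332 CPM (median 98.4). The part of blood left in the vessels in these differences was not tested.

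Antigen presentation and interferon genes gave few calls, in opposite directions. Of 19 class I presentation genes, H2-Q6 alone was called, with 17 positive values and a median of 0.11. H2-Q6, a nonclassical class I molecule, went from a median of 2.31 CPM (1.10 to 4.72) to 3.38 CPM (2.36 to 14.5), a log2 fold change of 0.84 ± 0.22 (adjusted p = 0.0351). The highest value belonged to replicate 7 of 15 months, and without that library the log2 fold change was 0.58 and the adjusted p 0.224. Leaving out single libraries gave 0 called members of the list in 11 of 31 fits. H2-T10, a related gene outside the list, rose by 0.52 ± 0.09 (adjusted p = 3.57e-05), from a median of 1.29 to 1.89 CPM, with 12 of 16 older libraries above every young one. Class I genes share sequence, and reads may be split among them.

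Of 33 type I interferon-stimulated genes, 2 were called lower and 0 higher, and 27 values were negative. Ifi44 changed by -0.73 ± 0.19 (adjusted p = 0.0322) and Mx2, which the annotation lists as a polymorphic pseudogene, by -0.57 ± 0.14 (adjusted p = 0.0263). Both calls were lost without the 4 libraries richest in choroid plexus genes and with the replicate number as a block. Leaving out replicate 9 of 15 months, replicate 10 of 3 months or replicate 16 of 3 months left 0 of the list called. The list's median log2 fold change against 3 months was -0.26 at 9, -0.14 at 15, 0.25 at 24 and 0.45 at 28 months. Zc3hav1, the zinc finger antiviral protein and not in the list, rose from a median of 8.81 CPM (7.09 to 11.9) to 12.3 CPM (9.71 to 13.3), by 0.42 ± 0.06 (adjusted p = 5.16e-06). None of 10 class II presentation genes and none of 16 tested interferon-gamma inducible GTPases was called.

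Clustered protocadherins are neuronal surface proteins encoded in tandem on chromosome 18, of which each neuron uses a small random set. Of 57 tested, 4 were called higher and 0 lower, all in the beta cluster: Pcdhb9, Pcdhb8, Pcdhb3 and Pcdhb6. Pcdhb9 ran from 10.9 to 13.3 CPM at 3 months (median 11.9) and from 16.4 to 20.4 CPM at 15 months (median 18.5), without overlap. Its log2 fold change was 0.60 ± 0.08, or 1.52-fold higher (adjusted p = 6.68e-08). Pcdhb8 changed by 0.50 ± 0.10, Pcdhb6 by 0.49 ± 0.12 and Pcdhb3 by 0.43 ± 0.09. Pcdhb6 lost its call without the 4 libraries richest in choroid plexus genes, and leaving out single libraries gave 3 to 5 called members. The list's median was 0.08. With only the 31 libraries, 12 members were higher and 2 lower. The genes of the cluster are similar in sequence, so reads may be shared.

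**Figure D2:**
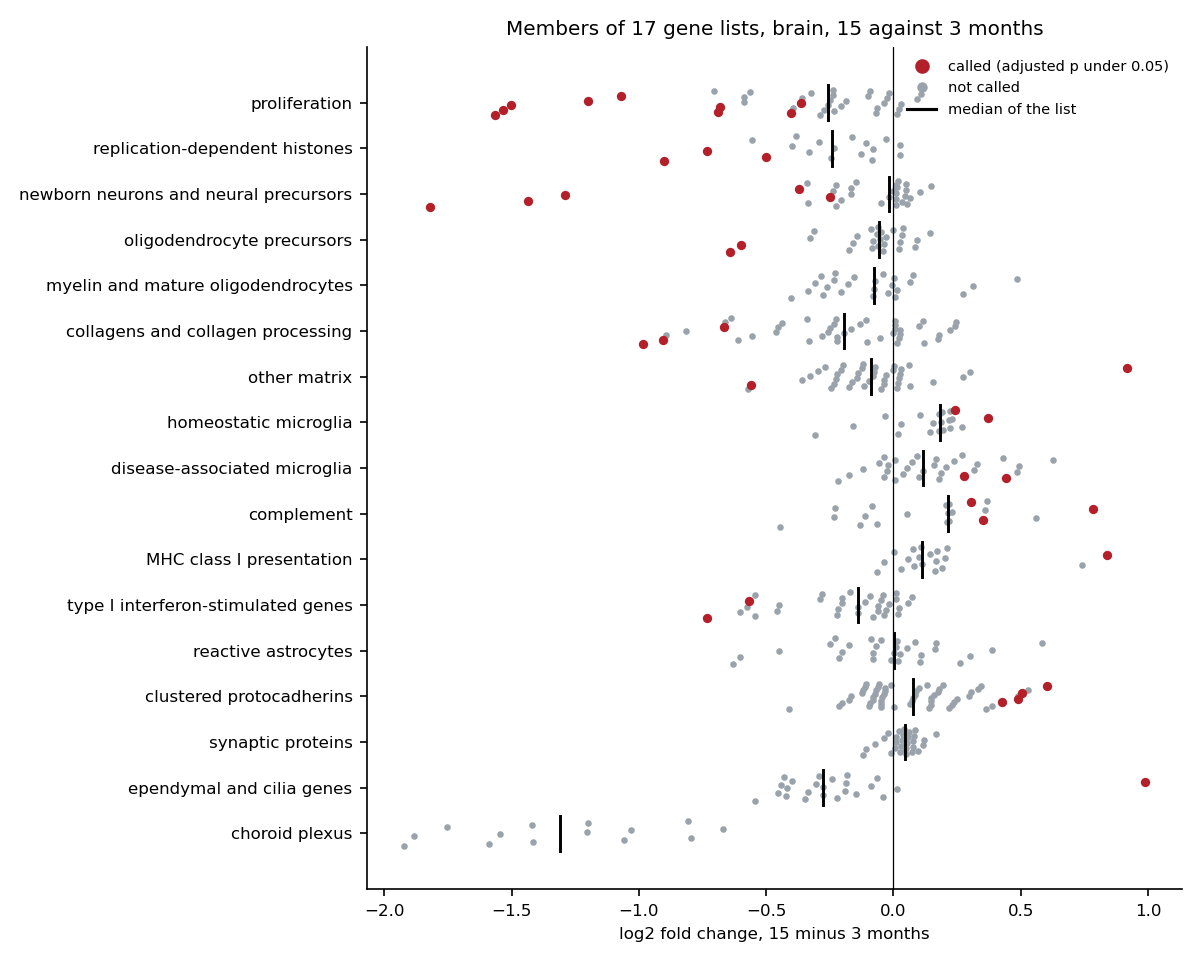
Log2 fold change, 15 minus 3 months, of every tested member of 17 gene lists, 1 row per list, with called members in red, the others in grey and the list's median as a black line. The called proliferation, histone and newborn neuron genes lie left of 0, the called complement, microglial and protocadherin genes right of 0, and the choroid plexus list has the lowest median (-1.31) with 0 called members; without replicate 14 of 15 months that median was -2.34, with 5 members called lower, and without replicate 5 of 3 months it was -0.70 with 0 called.

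The genes with the largest changes relative to their spread belonged to no single list. Upk1b, a tetraspanin known from the lining of the bladder, ran from 0.951 to 1.59 CPM at 3 months and from 2.07 to 2.87 CPM at 15 months (1.01 ± 0.10, adjusted p = 1.24e-11). Spag6, a protein of the central apparatus of motile cilia, ran from 1.75 to 2.62 CPM and from 2.93 to 5.37 CPM (0.99 ± 0.10, adjusted p = 1.78e-11). It was the 1 called member of 24 tested ependymal and cilia genes. Of the 24 values 22 were negative, and the list median was -0.28, or -0.08 without the 4 libraries richest in choroid plexus genes. Exons of Spag6 overlap Gm20539 on the opposite strand.

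Exoc3l4, a relative of exocyst subunits, ran from 1.20 to 2.40 CPM at 3 months and from 2.40 to 4.80 CPM at 15 months (0.85 ± 0.10, adjusted p = 3.03e-09). Txlnb, beta-taxilin, ran from 1.47 to 2.52 CPM and from 2.78 to 4.35 CPM (0.69 ± 0.08, adjusted p = 1.17e-08). Mlph, which links pigment granules to myosin in melanocytes, rose by 0.70 ± 0.09 (adjusted p = 1.62e-07), with 15 of 16 older libraries above every young one. Lin28b, an RNA-binding protein that blocks let-7 maturation, rose by 0.70 ± 0.11 from a median of 4.49 to 7.67 CPM (adjusted p = 6.85e-06), and the glutathione transferase Gstt3 by 0.72 ± 0.11 (adjusted p = 8.45e-06). Fmo2, a flavin monooxygenase, rose by 0.73 ± 0.17 (adjusted p = 0.0135), a call lost without the 4 libraries richest in choroid plexus genes.

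The highest fold changes belonged to genes of low level. A530053G22Rik, annotated as a processed transcript at chr6:60279043-60403707 (GRCm38), was at 0 to 0.118 CPM at 3 months and 0.222 to 0.918 CPM at 15 months, 8.57-fold higher in the fit (adjusted p = 5.12e-13). Fbxw23, which the annotation lists as a transcribed pseudogene on chromosome 9, went from a median of 0.683 CPM (0.392 to 1.12) to 2.14 CPM (0.247 to 3.83), a log2 fold change of 1.64 ± 0.24. Replicate 1 of 15 months, at 0.247 CPM, lay below every young library while 14 older libraries lay above all young ones. Without it the log2 fold change was 1.73. For Smok2b all 3-month libraries held 3 counts or fewer, and against that floor it was at least 2.91-fold higher. Cdkn2a, the locus of the senescence-linked inhibitors p16 and p19, went from a median of 0.0526 CPM (0.0145 to 0.231) to 0.190 CPM (0.0273 to 0.308), a log2 fold change of 1.59 ± 0.33 (adjusted p = 0.00244), and was the 1 called member of 17 tested cell cycle inhibitor and secretory senescence genes.

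Long noncoding genes made up 17 of the 98 genes called higher and 3 of the 65 called lower, beside 14.1% of the tested genes with an annotation. Gm37827 (0.99 ± 0.19) and E230020A03Rik (0.85 ± 0.18), both among the 12 highest of the called genes with at least 1 CPM, lie 3.45 kb apart on chromosome 7. Of the 163 called genes, 18 lay within 50 kb of another called gene (11.0%, against 1.96% of tested genes that were not called), in 10 pairs that each moved in 1 direction. They included Cbx2 and Cbx8, Polycomb subunits 5.03 kb apart on chromosome 11, at -0.40 ± 0.10 and -0.33 ± 0.07, Gstt1 and Gstt3, and the protocadherins. Cbx2 was called in 9 of 13 alternatives and in 18 of the 31 fits that left out 1 library, and Cbx8 in all of both. Neighbouring genes can share reads, and 34 called genes have an exon that overlaps another gene, 29 of them on the opposite strand. Such overlaps were not counted over all tested genes.

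Among the other low genes of at least 1 CPM, the small GTPase Rab7b changed by -0.70 ± 0.14 (adjusted p = 0.00118), Ptgr1, an enzyme of prostaglandin breakdown, by -0.62 ± 0.14 (0.00982), Gm14569 by -0.59 ± 0.15 (0.0266) and the amino acid transporter Slc38a5 by -0.57 ± 0.15 (0.0429). Without the 4 libraries richest in choroid plexus genes Rab7b alone of these 4 was called, and Slc38a5 was called in 11 of the 31 fits that left out 1 library. The lowest fold changes of all belonged to genes that were high in few libraries. Gh was at 0 to 495 CPM at 3 months and 0 to 2.94 CPM at 15 months, with medians of 0.0220 and 0.0323 CPM. Its log2 fold change of -6.76 ± 1.45 had an adjusted p of 0.00360. Without replicate 5 of 3 months it was -5.06, with an adjusted p of 0.0538. Prl, prolactin, which was not tested, reached 78.8 CPM at 3 months and at most 0.306 CPM at 15 months. Ighg2b, an antibody heavy chain, changed by -2.74 ± 0.74 (adjusted p = 0.0447), and 14 of 16 older libraries lay above the young median. Without replicate 13 of 3 months its adjusted p was 0.823, and without replicate 16 it was 0.205; it was called in 16 of the 31 fits that left out 1 library. At the threshold, Fam213a was the last gene called (0.18 ± 0.05, adjusted p = 0.0498) and Slc13a5 the first not called (0.30 ± 0.08, adjusted p = 0.0516).

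Lists of the main neural cell types and functions gave no call in this fit: reactive astrocytes (29 genes tested), resting astrocytes (18), glutamate and GABA receptors (38), synaptic proteins (33), immediate early genes (24), neuropeptides (26), endothelial and barrier genes (28), mural cells (13), chemokines and cytokines (25), T and cytotoxic cells (8), heat shock proteins (20), endoplasmic reticulum stress (19), glucocorticoid-responsive genes (19), Nrf2 targets (16), cholesterol synthesis (21), nuclear oxidative phosphorylation (79), mitochondrially encoded proteins (13), cytosolic ribosomal proteins (79), proteasome subunits (34), osmolyte transporters (6), lipid droplet proteins (16) and the clock (19). A missed threshold does not show equal levels. Gfap, the intermediate filament of reactive astrocytes, was at 299 ± 38.7 CPM at 3 months and 323 ± 35.2 CPM at 15 months (SD), a log2 fold change of 0.10 ± 0.08. Camk2a, the kinase of excitatory synapses, changed by 0.05 ± 0.07 and the astrocyte glutamate transporter Slc1a2 by 0.14 ± 0.08. Members near the threshold included Ggta1 of the reactive astrocyte list (0.26 ± 0.08, adjusted p = 0.0914) and the chemokine Cxcl14 (0.28 ± 0.08, adjusted p = 0.0952). Nearer than both was the neuropeptide precursor Pomc, also made in the pituitary, with an adjusted p of 0.0599. Pomc had an SD of 17.5 around a mean of 5.75 CPM at 3 months. The neuropeptide list had 1 member called lower in 10 of the 31 fits that left out 1 library. Ribosomal protein genes had 75 of 79 positive values with a median of 0.07, and oxidative phosphorylation genes 68 of 79 with a median of 0.04.

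Within single preps the directions held and the calls mostly did not. Of the 163 genes, 161 had the same sign in each prep fitted alone, Gh and Ighg2b being the exceptions, beside 42.0% of all tested genes; these are parts of the libraries that gave the calls. Prep 1 alone called 17 genes (0.0909%; 1060 at an unadjusted p under 0.05), prep 2 alone called 11 (0.0588%; 615) and prep 3 alone, with 5 and 4 libraries, called 0 (582 at an unadjusted p under 0.05, and edgeR was the 1 tool run there). Of these calls, 14 of 17 and 11 of 11 were among the 163.

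**Figure D3:**
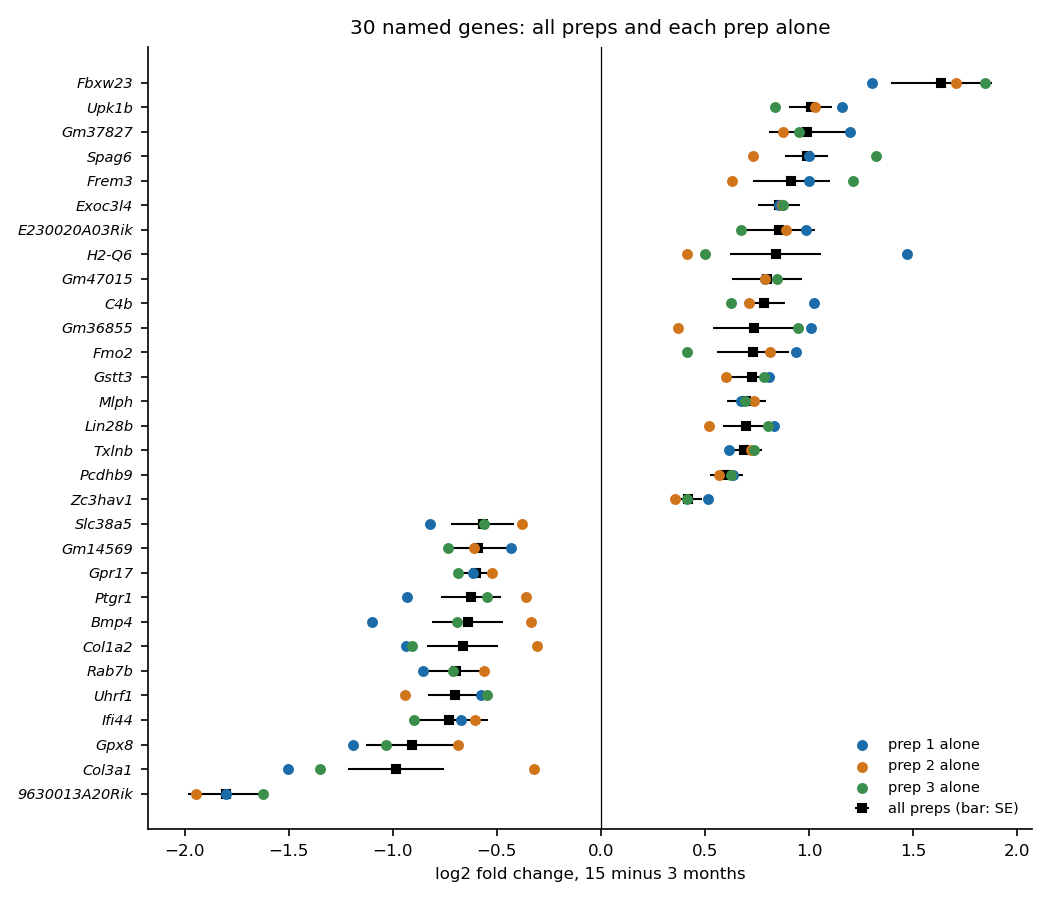
Log2 fold change, 15 minus 3 months, of 30 genes (the 12 highest, the 12 lowest and the 6 smallest p-values among called genes of at least 1 CPM) over all preps (black squares, bars are SE) and in each prep alone (coloured points). All points of a gene lie on 1 side of 0, by the rule that chose them, and among these 30 the preps spread most for Col3a1, H2-Q6 and Bmp4.

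The other ages placed 15 months in a course. Against 9 months, 0 genes were called at 15 months with edgeR (532 at an unadjusted p under 0.05), 4 with DESeq2 and 34 with limma-voom and sample weights. Against 3 months, 59 genes were called at 9 months (0.315%), 1882 at 24 months (10.1%) and 5291 at 28 months (28.3%). These comparisons use the same 3-month libraries, so the values are given side by side and not as support. The median log2 fold change of the 98 higher genes was 0.37 at 9, 0.56 at 15, 0.74 at 24 and 0.70 at 28 months, and that of the 65 lower genes was -0.43, -0.60, -0.67 and -0.71. Of the 163 genes, 43 were among the 59 called at 9 months.

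The genes took different courses. Txlnb had reached its level by 9 months, with means of 2.08 ± 0.295, 3.20 ± 0.356, 3.35 ± 0.423, 3.29 ± 0.573 and 3.06 ± 0.605 CPM (SD, n = 15, 16, 16, 17 and 18) from the youngest to the oldest age. C4b had means of 41.7 ± 11.6, 57.9 ± 9.08, 71.8 ± 10.7, 131 ± 23.6 and 210.0 ± 42.9 CPM, and its step from 9 to 15 months did not pass the test. Top2a had means of 1.39 ± 0.605, 0.737 ± 0.399, 0.468 ± 0.167, 0.393 ± 0.166 and 0.429 ± 0.234 CPM, so that it lay lowest from 15 months on. Slc2a5 was highest at 15 and 24 months (6.19 ± 0.529 and 6.15 ± 1.14 CPM) and at 5.14 ± 1.62 CPM at 28 months.

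Between 15 and 24 months, which do not share the 3-month libraries but share those of 15 months with the present comparison, 137 genes were called (0.732%; 127 higher and 10 lower). Of the 98 genes called higher at 15 months, 13 were called higher again: A530053G22Rik, C4b, Ly9, AA414992, H2-T10, Gm16505, Lsp1, Slc11a1, Cd68, Gm13212, H2-Q6, Lag3 and Itgb2. Of the 65 lower genes, Gpr17 and 9630013A20Rik were called lower again, and 0 of the 163 were called in the opposite direction. C4b changed by a further 0.86 ± 0.10 (adjusted p = 3.14e-09), Cd68 by 0.28 ± 0.06 (0.00254), Gpr17 by -0.51 ± 0.10 (0.00182) and 9630013A20Rik by -0.83 ± 0.19 (0.0135).

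**Figure D4:**
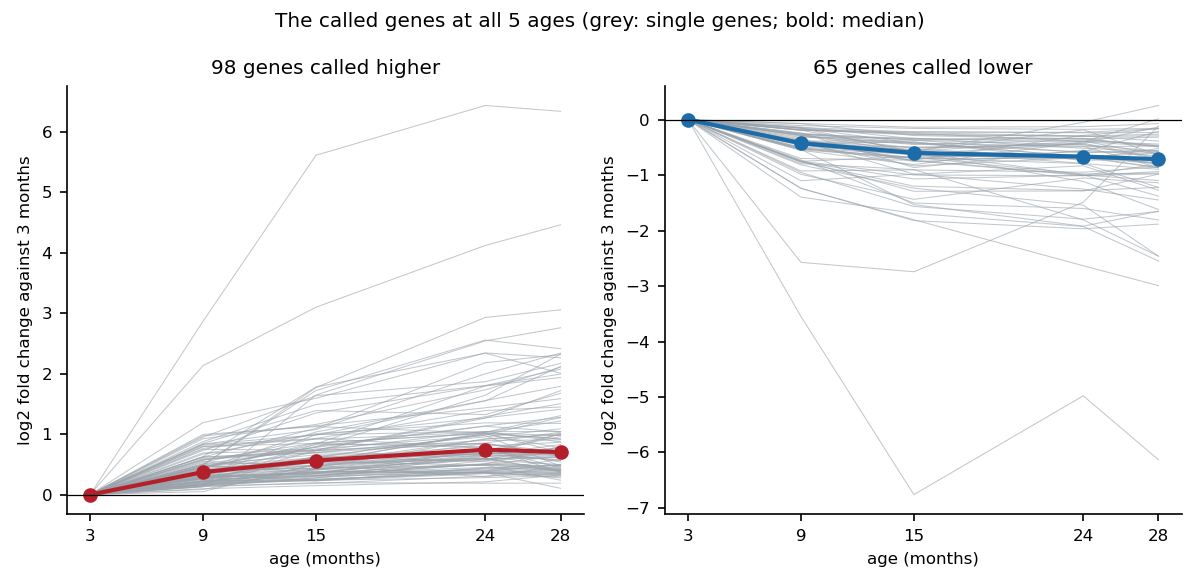
Log2 fold change against 3 months of the 98 genes called higher (left) and the 65 called lower (right) at 15 months, at each of 5 ages, with single genes in grey and the median in colour. The medians reach 0.37 and -0.43 at 9 months and 0.56 and -0.60 at 15 months, and the gene that falls far below the others on the right is Gh; all points of 3 months are 0 by construction.

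In the liver, the comparison of 15 with 3 months called 1140 of 15579 genes (7.32%). Of the 163 brain genes, 105 were tested in the liver and 10 were called there, 9.52% of those tested and 1.06% of the 940 genes called in the liver that were tested in the brain. The direction was the same for Mlph, Cdkn2a, Hhipl1, Naip2, mt-Tw, C3ar1 and Hist1h1c and opposite for Gem, Zfp811 and Ighg2b. The brain calls of Hhipl1, Naip2, C3ar1, Hist1h1c, Gem and Zfp811 were lost without the 4 libraries richest in choroid plexus genes. Mlph changed by 0.70 ± 0.09 in the brain and 0.61 ± 0.13 in the liver, and Cdkn2a by 1.59 ± 0.33 and 3.04 ± 0.39.

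The difference between the tissues was tested with the tissue by age interaction, which called 244 of 14035 genes kept in both tissues (1.74%), 15 of the 105 brain genes among them. With the mouse as a block, 20 of the 105 were called: 14 of the 15, and Top2a (adjusted p = 0.00247, against 0.239 without the block), Mki67 (0.0174, against 0.480), Eomes (0.0253, against 0.0740), Ccnb1 (0.0272, against 0.601), Aldh1a1 (0.0308, against 0.0507) and Pbk (0.0328, against 0.352). For these 6 genes the difference of brain minus liver without the block was negative. Eomes and Aldh1a1 lost their brain calls without the 4 libraries richest in choroid plexus genes. Aldh1a1 was called in the brain in 22 of the 31 fits that left out 1 library. C4b had means of 1533 CPM in the 3-month and 1559 CPM in the 15-month liver (0.04 ± 0.11), and the difference of brain minus liver was 0.73 ± 0.15 (adjusted p = 0.000628). Zc3hav1 changed by -0.15 ± 0.08 in the liver (difference 0.55 ± 0.10, adjusted p = 6.37e-05), and Exoc3l4 by -0.11 ± 0.16 (difference 0.95 ± 0.19, adjusted p = 0.000339). Gem, a small GTPase induced by activity, went from 2.14 ± 0.679 to 1.51 ± 0.334 CPM in the brain and from a mean of 3.20 to one of 4.78 CPM in the liver (0.57 ± 0.11, difference -1.09 ± 0.17, adjusted p = 5.97e-07).

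**Figure D5:**
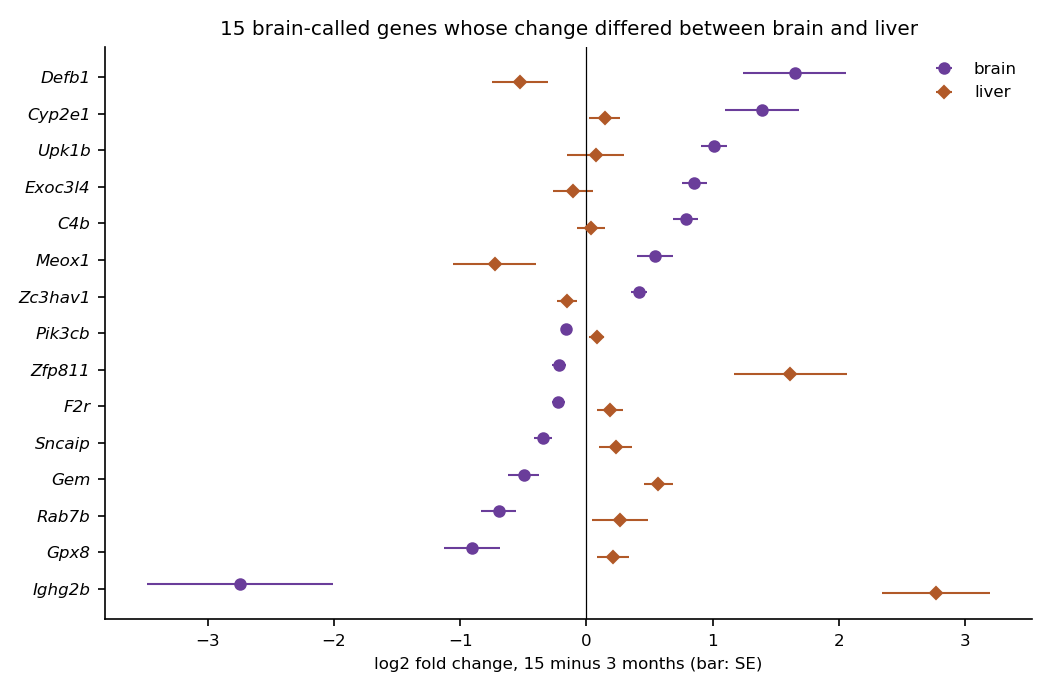
Log2 fold change, 15 minus 3 months, in brain (circles) and liver (diamonds), with SE as bars, for the 15 brain-called genes whose change differed between the tissues (edgeR interaction, adjusted p under 0.05). C4b, Upk1b and Exoc3l4 lie well above 0 in the brain and near 0 in the liver, while Gem and Ighg2b lie on opposite sides of 0; the brain call of Ighg2b was kept in 16 of 31 fits that left out 1 library.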

How the data were processed

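Polyadenylated RNA of brain and liver was sequenced from male C57BL/6J/Ukj mice, with QIAzol and chloroform extraction, a stranded TruSeq kit and paired 100-base reads, per the labels' protocols. The authors deposited 1 table of whole-number raw counts per gene and tissue. The submitters' processing notes name cutadapt 2.8, HISAT2 2.1.0, SAMtools 1.9, featureCounts, Subread 2.0.1 and the builds GRCm38.p6 and mm10. The annotation release, the strand setting and the treatment of reads that match several places are not given in the sources used here. Gene symbols matched 55144 of 55471 identifiers, and 0 columns were left unused.

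All 82 brain libraries were fitted with edgeR 4.0.16 in R 4.3.3 (age and prep as terms, filterByExpr by age, TMM factors, quasi-likelihood test, two-sided). Benjamini-Hochberg adjustment ran over 18711 genes, and calls needed an adjusted p under 0.05. Each SE is the absolute log2 fold change over the root of its F value. A library with 3 counts or fewer was at the floor, which covers counting error only. No pair of the 31 libraries agreed within sampling noise. The labels number the mice. In the fit of the brains, p-values rest on the spread between libraries left after age and prep. That spread was estimated over all 82 brain libraries and not over the 31 alone. The difference between the tissues was tested in 1 fit over all libraries of both tissues. On simulated counts for 18643 genes with 50 changed at each size, this comparison recovered 58% of 1.25-fold, 88% of 1.5-fold, 96% of 2-fold and 98% of 3-fold changes, with 13 false calls. The simulated counts had the fitted spread and, apart from the set changes, 1 mean level per gene. They held no effect of prep and no library that stood apart, so recovery in the real libraries can differ.

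The members and the gene lists were chosen with earlier results of these data known. Named genes were the 12 highest, the 12 lowest and the next 6 smallest p-values among calls averaging 1 CPM or more and with 1 direction in all preps, up to 4 called members of each list, and, for lists with none called, the most abundant member and that with the smallest p. Alternatives were other libraries in the fit, scalings, filters and covariates, DESeq2 1.42.0, limma 3.58.1 with voom sample weights, single preps, a replicate block and each library left out. Positions and exon overlaps come from GENCODE M21 (GRCm38) and promoters from RefSeq (GRCm38.p6).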

Additional observations from a re-analysis of the deposited data

Results flagged for a closer look

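For 15 of the genes called in the brain, the change from 3 to 15 months differed between brain and liver by the tissue by age interaction (edgeR, adjusted p under 0.05 over all genes kept in both tissues). The values are differences of log2 fold changes, brain minus liver. The difference was 2.14 for the defensin Defb1, 1.248 for the transcription factor Meox1, 1.21 for the cytochrome Cyp2e1, 0.95 for Exoc3l4, 0.94 for Upk1b, 0.73 for C4b and 0.55 for Zc3hav1. It was -5.59 for the antibody chain Ighg2b, -1.92 for Zfp811, -1.12 for Gpx8, -1.09 for Gem, -0.98 for Rab7b, -0.60 for Sncaip, -0.43 for the thrombin receptor F2r and -0.26 for the kinase subunit Pik3cb.

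With the mouse as a block, 14 of the 15 were called and F2r was not (adjusted p = 0.0533), and 6 more genes called in the brain passed: Top2a, Mki67, Eomes, Ccnb1, Aldh1a1 and Pbk. The brain calls of Defb1, F2r, Pik3cb, Gem, Zfp811, Eomes and Aldh1a1 were lost without the 4 libraries richest in choroid plexus genes. Meox1 was called in 15 of the 31 fits that left out 1 library. Ighg2b was called in 16 of these fits, and its log2 fold change was -1.24 without replicate 13 of 3 months and -2.28 without replicate 16. At 15 months Cyp2e1 had means of 0.659 CPM (brain) and 6267 CPM (liver).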

How the results depend on the processing

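The count of 163 called genes (98 higher, 65 lower) moved with the libraries in the fit. With only the 31 libraries of 3 and 15 months it was 361 (228 higher, 133 lower), and without the 24-month replicate 13 and the 28-month replicate 15 it was 359 (243 higher, 116 lower). With voom sample weights it was 822 (494 higher, 328 lower), 160 of the 163 among them. Single preps called 17 (10 higher, 7 lower), 11 (7 higher, 4 lower) and 0. A filter of at least 1 CPM in 15 libraries left 41 lower genes, and leaving out the 4 libraries richest in choroid plexus genes left 39. That filter tested 15433 genes instead of 18711, and 26 of the 65 genes called lower had a mean under 1 CPM. Single preps and the fit without the choroid-rich libraries held fewer libraries. The cause of the moves was not tested. The other fits called 148 to 224 genes, and 67 of the 163 were called in all 13 alternatives over all preps. In the count of 67, a gene that a stricter filter removed, and so did not test, stood as not called. Leaving out each of 31 libraries gave 124 to 195 calls (75 to 115 higher, 49 to 86 lower), and 103 of the 163 were called every time.

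Against 9 months, 4 genes were called with DESeq2, 34 with voom, 4 without the 24-month replicate 13 and the 28-month replicate 15, and 1 each without the 4 choroid-rich libraries and with the choroid plexus score. The number of genes called for the tissue by age interaction, 15 against 3 months, was 404 with only the 63 libraries of these ages and 155 with the stricter filter, which tested fewer genes. Ighg2b turned to 0.26 with voom and 0.88 in prep 1 alone, and Gh to 2.17 in prep 1 and 2.27 in prep 3 alone. Fits without the odd, choroid-rich or scored libraries were added after the data were seen.

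The replicate numbers did not pair the brains: over 15 pairs of equal number the residuals correlated at -0.27 to 0.40, 6 pairs lay above 0.1, and 1 young library correlated best with its own number. With the number as a replicate block 155 genes were called (98 higher, 57 lower), 144 of the 163 among them. With the mouse as a replicate block the interaction called 190. Depth is low for 54 of the called genes, whose mean was under 1 CPM.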
